A study of Mus musculus with 40 samples.

Results

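The comparison described here set the right kidneys of 5 mice given TCDD at 3 µg/kg against those of 5 mice given the oil vehicle alone. TCDD (2,3,7,8-tetrachlorodibenzo-p-dioxin) is a persistent environmental dioxin. The members were chosen by the dose in the labels: the 5 RNA-seq libraries of dose 3 and the 5 of dose 0, which are 10 of the 40 libraries of a dose series with 8 groups of 5. All mice were males of the C57BL/6 strain and were gavaged every 4 days for 28 days, starting at an age of 30 days, with TCDD in sesame oil or with sesame oil alone. The treated mice therefore received 3 µg/kg at each gavage, and the controls shared the strain, sex, age, oil and handling. The libraries were made from RNA of whole kidney tissue, 1 library a mouse, so every value below is an average over all cell types of the tissue. A rise can come from more cells of a type or from more RNA per cell, and bulk counts do not tell these apart. The libraries of the next lower dose (1 µg/kg) and the next higher dose (10 µg/kg), 5 each, are used at the end to show where this dose lies.

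TCDD binds the aryl hydrocarbon receptor (AhR), a ligand-activated transcription factor that waits in the cytosol in a chaperone complex. After binding it enters the nucleus, pairs with ARNT and occupies short DNA elements whose core reads GCGTG. Its best known targets encode enzymes that oxidize or conjugate foreign compounds, and the AhR repressor, which feeds back on the receptor. The AhR is also expressed in immune cells and endothelium. Interferon signalling is a separate route. Interferons act through receptors, JAK kinases and the transcription factors these activate, and the genes they induce include guanylate-binding proteins, antiviral factors and the machinery that presents peptides on MHC molecules.

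The 10 libraries held 15300952 to 23738125 gene counts each. Levels are given as CPM, read counts relative to the scaled library size, in the order of replicates 1 to 5. Replicate numbers only name a library and pair nothing across groups. Of 7 technical measures, among them depth and the shares of unmapped, mitochondrial and multimapping reads, the lowest p between the groups was 0.175 for the mitochondrial share (exact two-sided permutation test, n = 5 and 5, smallest possible p 0.00794), and the adjusted p-values were 0.625 or above. Kidney markers were present in all 10 libraries: the proximal tubule S1-S2 list, with the phosphate transporter gene Slc34a1, summed to 19023 CPM or more, and the podocyte list to 458 CPM or more. Vehicle replicates 1 and 2 stood apart. The S3 proximal tubule list summed to 2257 and 2413 CPM there, against 4311 to 4810 CPM in the other 3 vehicle libraries and 3878 to 4917 CPM at 3 µg/kg. The androgen-responsive list summed to 15718 and 15202 CPM there, against 20614 to 29059 CPM in the other 3. The thick ascending limb list summed to 2165 and 2459 CPM there, against 3249 to 4726 CPM in the other 3. In the liver list it was 86.1 and 91.3 against 177 to 241 CPM, and in the fat list 262 and 259 against 113 to 156 CPM. Where the call of a named gene was lost without both libraries, its adjusted p without them, or the range of the group, is given below. Adrenal cortex markers summed to 43.9 CPM in replicate 2 at 3 µg/kg and to 3.85 to 5.80 CPM in the other 9 libraries.

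At 3 µg/kg almost all called genes were higher than in vehicle. Of 17345 genes tested, 189 (1.09%) passed an adjusted p under 0.05 (edgeR quasi-likelihood F-test with Benjamini-Hochberg adjustment, all 40 libraries in the fit): 178 were higher (1.03%) and 11 lower (0.0634%). These shares are the background for the calls in each list below. In a short list a count of 0 does not set the list apart from them. Among the 178, 102 rose more than 2-fold and 24 more than 4-fold, and their median log2 fold change was 1.09. None of the 11 lower genes fell by 2-fold, and their median log2 fold change was -0.52. In 135 of the 178 higher genes all 5 treated libraries lay above all 5 vehicle libraries, an order that held for 290 of all tested genes (1.67%). The reverse order held for 118 of all tested genes (0.68%). With no threshold, 8731 of the 17345 log2 fold changes were positive. Without vehicle replicates 1 and 2 the test called 108 genes, all of them higher, and 101 of these were also among the 189. Without replicate 5 at 3 µg/kg it called 119, and without vehicle replicate 2 it called 126.

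**Figure D1:**
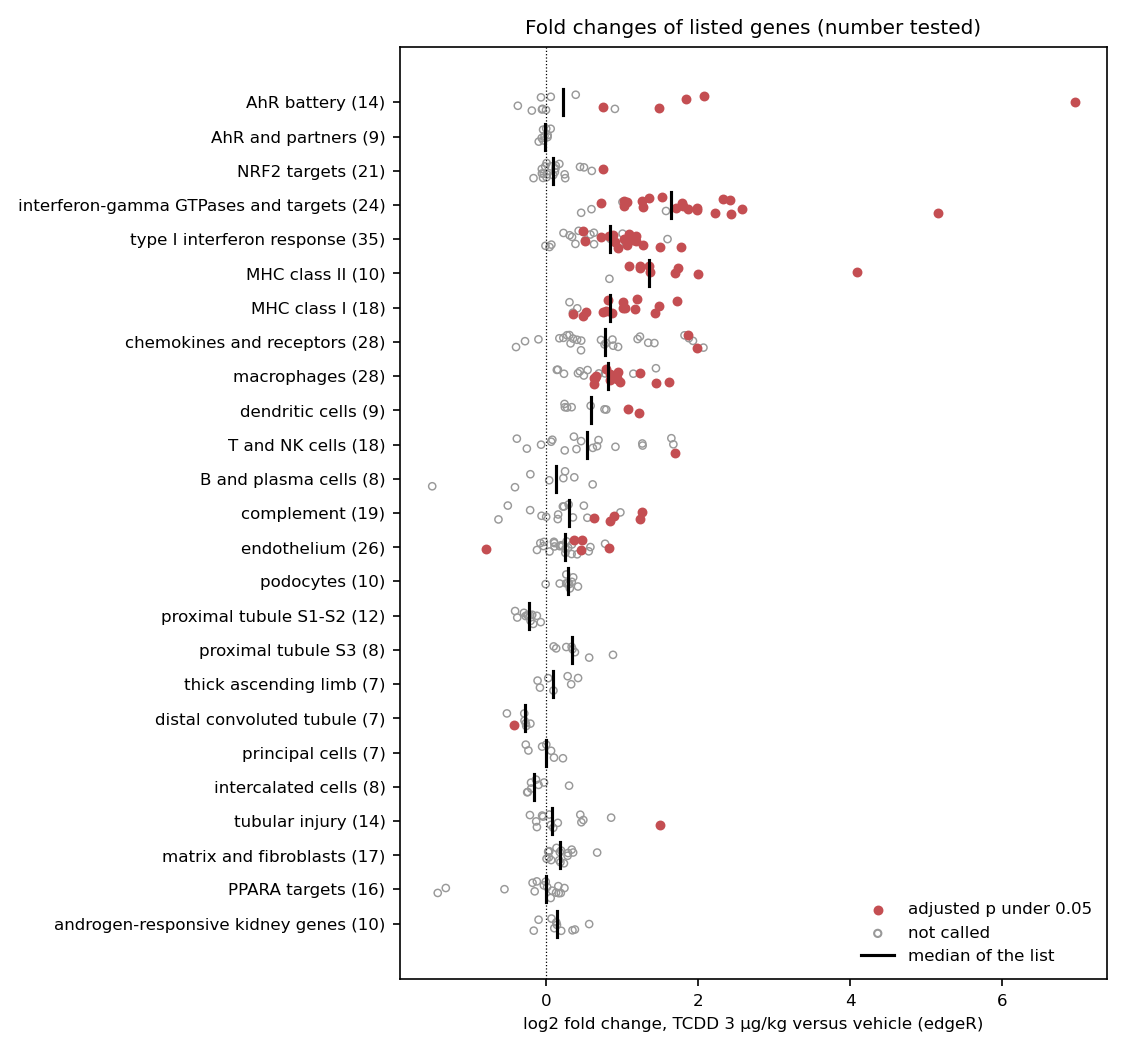
Log2 fold change at 3 µg/kg versus vehicle (horizontal axis) for the tested genes of 25 gene lists (rows, number tested in brackets). Filled red points passed an adjusted p under 0.05, open points did not, and the black bar is the list's median: the interferon, MHC and macrophage lists lie to the right of 0, and the AhR battery holds the largest single change, 6.96 for Cyp1a1.

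The largest change among the called genes was in a target gene of the AhR itself. Of the 15 listed members of the AhR battery 14 were tested, 5 rose, and none fell. The median log2 fold change of the 14 was 0.23, against 0.0013 over all genes tested. Cyp1a1 (ENSMUSG00000032315), which encodes the cytochrome P450 that is the classical readout of AhR activation, stood at 1.15, 4.00, 1.60, 3.42 and 1.70 CPM in vehicle and at 261, 235, 260.1, 361 and 354 CPM at 3 µg/kg. The groups were far apart: the lowest treated library was above every vehicle library by a wide margin, and the log2 fold change was 6.96 ± 0.28 (standard error, here and below; adjusted p = 1.38e-18), or 125-fold. Cyp1b1 (ENSMUSG00000024087), a P450 outside the liver that oxidizes estrogens and polycyclic hydrocarbons, rose from 21.4, 24.1, 20.0, 24.3 and 25.6 CPM to 55.0, 54.7, 66.0, 62.9 and 82.7 CPM. That is 2.79-fold (log2 1.48 ± 0.15, adjusted p = 1.87e-08), with little spread in either group.

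Ahrr (ENSMUSG00000021575), the AhR repressor, had 0.519, 0.608, 1.08, 1.05 and 2.27 CPM in vehicle and 6.06, 2.69, 4.69, 3.75 and 6.03 CPM at 3 µg/kg. Its treated values did not reach down to the highest vehicle library, replicate 5, and the log2 fold change was 2.08 ± 0.37 (adjusted p = 0.000669). Aldh3a1, an aldehyde dehydrogenase, had 1.21, 1.32, 1.04, 0.855 and 0.567 CPM in vehicle and 3.64, 3.39, 2.15, 4.55 and 4.35 CPM at 3 µg/kg (log2 1.85 ± 0.34, adjusted p = 0.000716). Nqo1, the quinone reductase that both the AhR and NRF2 induce, had 38.8, 35.8, 54.7, 53.4 and 57.7 CPM in vehicle and 77.0, 85.8, 66.0, 92.6 and 83.1 CPM at 3 µg/kg. The groups did not overlap, but the 2 lowest vehicle values were those of replicates 1 and 2. The log2 fold change was 0.75 ± 0.16 (adjusted p = 0.00709), and without those 2 libraries it was 0.55 (adjusted p = 0.261).

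The rest of the battery did not pass the test. Cyp1a2, the liver-type relative of Cyp1a1, was barely detected, with 0, 0.304, 0, 0.394 and 0.0567 CPM in vehicle and 0, 0, 0, 0.201 and 0.514 CPM at 3 µg/kg, so a change was not detectable at this depth. Tiparp, which encodes a PARP enzyme that limits AhR signalling and is a direct AhR target in many tissues, had 34.7, 29.7, 28.6, 26.8 and 24.2 CPM and 30.4, 27.8, 25.1, 27.8 and 28.4 CPM. Those ranges overlapped (log2 -0.05 ± 0.10, adjusted p = 0.95). The receptor and its partners form a list of 9 genes, of which 0 were called, and over all genes tested 1.09% were. Ahr itself had a log2 fold change of 0.00 ± 0.15 (adjusted p = 0.999) and Arnt one of 0.06 ± 0.09 (adjusted p = 0.921).

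The promoters of 3 of the called AhR targets are shown because they carry the GCGTG core. Each window runs 5′ to 3′ on the gene's strand from 250 bases before to 50 bases after the RefSeq start (build GRCm38.p6), with the core, or its reverse complement CACGC, in capitals.
Cyp1a1, chr9:57697363-57697662, plus strand: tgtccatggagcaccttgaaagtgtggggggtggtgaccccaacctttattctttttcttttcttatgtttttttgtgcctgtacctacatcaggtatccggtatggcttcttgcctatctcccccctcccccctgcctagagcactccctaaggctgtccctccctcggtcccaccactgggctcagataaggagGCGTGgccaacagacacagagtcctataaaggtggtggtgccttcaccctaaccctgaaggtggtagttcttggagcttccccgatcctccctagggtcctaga
Cyp1b1, chr17:79715012-79715311, minus strand: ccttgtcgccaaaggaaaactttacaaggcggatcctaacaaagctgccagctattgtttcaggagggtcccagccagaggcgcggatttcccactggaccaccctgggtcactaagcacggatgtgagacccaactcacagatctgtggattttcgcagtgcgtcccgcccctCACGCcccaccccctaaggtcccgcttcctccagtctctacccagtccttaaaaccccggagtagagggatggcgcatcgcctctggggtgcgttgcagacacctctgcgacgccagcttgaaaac
Ahrr, chr13:74292282-74292581, minus strand: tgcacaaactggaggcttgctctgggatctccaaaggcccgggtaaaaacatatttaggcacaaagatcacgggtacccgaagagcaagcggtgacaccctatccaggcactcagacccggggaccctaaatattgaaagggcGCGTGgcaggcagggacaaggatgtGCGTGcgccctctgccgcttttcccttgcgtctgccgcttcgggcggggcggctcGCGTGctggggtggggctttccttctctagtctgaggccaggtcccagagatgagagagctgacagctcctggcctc
The core begins 54 bases before the start in Cyp1a1 and 76 before it in Cyp1b1, and Ahrr has 3 copies, at 107, 82 and 27 bases before. Such a short core is common. At least 1 copy on either strand was present for 47 of the 139 higher genes that had a window (33.8%), for 52.2% of all tested genes with a window, and in 32.4% of all 32851 windows of that length. A match is a description of the letters, not evidence of binding.

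NRF2, the regulator of antioxidant genes, had 21 tested targets, of which Nqo1 alone rose (median log2 fold change 0.09). Over all genes tested 1.03% were called higher, and among ion pumps 1 of 9 tested genes was. That gene, Atp12a, encodes the catalytic subunit of the colonic-type proton-potassium pump of the collecting duct, and it had 0, 0.152, 0.130, 0.920 and 0.397 CPM in vehicle and 4.11, 4.62, 8.41, 6.23 and 5.14 CPM at 3 µg/kg. All treated values were several times the highest vehicle value, which was replicate 4 (log2 4.24 ± 0.55, adjusted p = 1.48e-05; 5.03 without that library). The gastric-type pump gene Atp4a and the sodium pump genes were not called.

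The second and broader group was the set of genes known to be induced by interferon-gamma. Of 24 tested members 20 rose and 0 fell, and the median log2 fold change was 1.64. Most encode GTPases that attack the vacuoles of intracellular microbes. Gbp2, a guanylate-binding protein, rose from 8.76, 10.4, 7.21, 11.0 and 10.7 CPM to 26.3, 38.7, 20.8, 19.6 and 32.1 CPM (log2 1.52 ± 0.18, adjusted p = 1.12e-06). Gbp4 had a log2 fold change of 1.71 ± 0.25 and Gbp6 one of 2.44 ± 0.34 (adjusted p = 3.99e-05 for both). The immunity-related GTPase gene Ifi47 changed by 1.81 ± 0.26 and its relative Tgtp2 by 1.98 ± 0.30 (adjusted p = 3.99e-05 and 8.82e-05). In each of these genes all 5 treated libraries exceeded all 5 vehicle libraries.

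Some members were nearly silent in vehicle. Gbp2b gave 4 counts in the 5 vehicle libraries together, and its ratio of 3 µg/kg to vehicle was 43.3 with an exact 95% counting interval of 16.6 to 160.7, which covers counting error only. Its CPM values were 0, 0.0507, 0.0432, 0.0657 and 0.0567 in vehicle and 0.580, 1.99, 1.83, 1.00 and 3.41 at 3 µg/kg, so even the lowest treated library was clearly above the vehicle range. Tgtp1 had 6.11, 6.74, 3.28, 5.98 and 3.85 CPM in vehicle and 10.5, 38.7, 18.0, 10.7 and 75.8 CPM at 3 µg/kg. Replicates 5 and 2 were far above the other 3 treated libraries, and the log2 fold change of 2.58 ± 0.45 (adjusted p = 0.00073) dropped to 1.91 without replicate 5. For Gbp10 (log2 2.42 ± 0.47) 46.3% of the exonic bases, and for Gbp6 29.0%, lie in other genes as well, and near-identical copies within these GTPase families can take each other's reads, so single members are less certain than the group. With only the 10 libraries in the fit 12 of the 24 were called, and Tgtp1 (adjusted p = 0.174) and Gbp6 (0.0604) were not. Gbp10 was not called without vehicle replicates 1 and 2 (adjusted p = 0.073).

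The T cell-attracting chemokines Cxcl9 and Cxcl10, which belong to the same list, were the 2 called among 28 tested chemokines and chemokine receptors. The median log2 fold change of the 28 was 0.78, with 25 positive and 15 at an unadjusted p under 0.05. Cxcl9 had 2.19, 3.14, 1.47, 1.64 and 1.42 CPM in vehicle and 7.49, 10.1, 6.65, 4.89 and 7.15 CPM at 3 µg/kg (log2 1.87 ± 0.35, adjusted p = 0.000888). Cxcl10 had 2.42, 2.58, 2.29, 2.56 and 2.10 CPM and 7.75, 9.41, 9.19, 7.10 and 13.6 CPM (log2 1.98 ± 0.38, adjusted p = 0.00195). Vehicle values of Cxcl10 were very even, and replicate 5 was the highest of the treated libraries. Their shared receptor gene Cxcr3 was not called.

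The type I interferon list, the antiviral genes, had a lower median and a smaller share of calls: 17 of 35 tested members rose, 0 fell, and the median log2 fold change was 0.85. Stat2, which encodes a transcription factor of the interferon signal, rose from 23.2, 19.8, 21.2, 23.4 and 24.5 CPM to 32.6, 40.1, 39.8, 28.2 and 43.8 CPM (log2 0.72 ± 0.11, adjusted p = 3.99e-05). Its treated values lay above every vehicle value. Ifit1, which binds viral RNA ends, rose 2.84-fold (adjusted p = 0.000129). On the log2 scale the PARP gene Parp14 changed by 1.06 ± 0.17, Oasl2 by 0.88 ± 0.15 and the transcription factor gene Irf7 by 1.09 ± 0.19 (adjusted p = 0.000134, 0.00016 and 0.000366). The count of 17 rested partly on single libraries: it was 10 without replicate 5 at 3 µg/kg, 11 without vehicle replicate 2, and 9 without vehicle replicates 1 and 2.

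The interferon genes on the list, Ifnb1, Ifng, Ifnk and Ifne, gave almost no reads. The list holds no other interferon gene. Of 16 listed ligands, receptors and kinases 9 passed the filter on low counts, and 0 of these were called (median log2 fold change 0.10). The ligand genes Ifng and Ifnb1, chosen here after their values were seen, gave 0 counts each in the vehicle libraries together, which allows a level of up to 0.0318 CPM, and 5 and 2 counts at 3 µg/kg. Ifnk gave 4 counts in vehicle and 1 at 3 µg/kg, and Ifne gave 0 in both groups. The cytokine genes Il27 and Il12b gave 2 and 10 counts in vehicle and 14 and 27 at 3 µg/kg. The interferon receptor subunits Ifnar1, Ifnar2, Ifngr1 and Ifngr2 were well detected and not called.

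**Figure D2:**
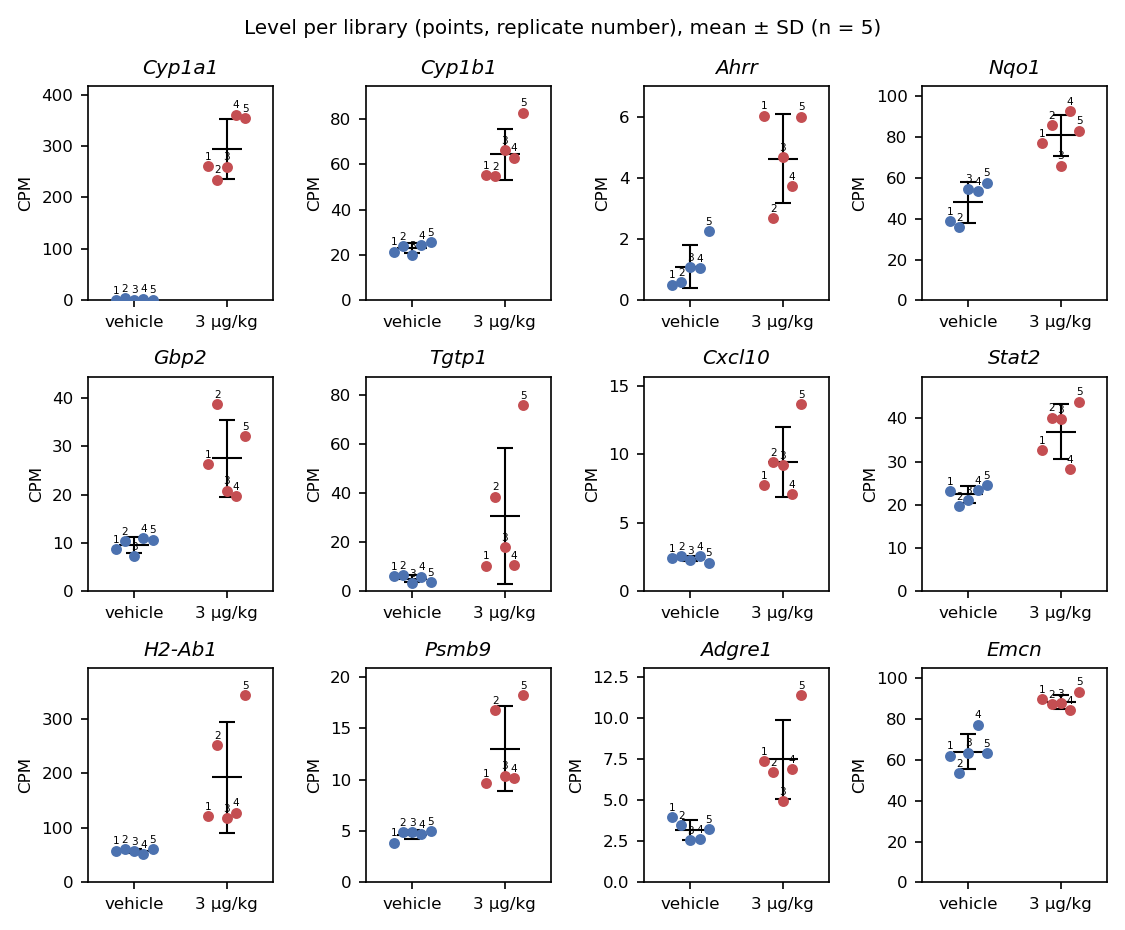
CPM (vertical axes, each from 0) of 12 genes in the 5 vehicle (blue) and 5 TCDD 3 µg/kg libraries (red), with replicate numbers, and the mean ± SD of each group as the black bar. The AhR targets in the top row lie above the vehicle range in all treated libraries, whereas Tgtp1 and H2-Ab1 are highest in replicates 5 and 2.

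Interferon-stimulated response elements contain GAAA, 2 bases of any kind and GAAA again, which read TTTC, 2 bases and TTTC on the other strand. Windows of 4 genes are printed because they hold this element, in capitals, near the start.
Ifit1, chr19:34640639-34640938, plus strand: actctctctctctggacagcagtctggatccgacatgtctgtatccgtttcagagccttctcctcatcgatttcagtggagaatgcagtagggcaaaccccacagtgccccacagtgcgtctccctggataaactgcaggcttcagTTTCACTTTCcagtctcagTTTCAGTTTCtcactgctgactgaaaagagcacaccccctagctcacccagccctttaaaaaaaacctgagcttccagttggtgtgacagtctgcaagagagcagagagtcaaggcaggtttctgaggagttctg
Gbp2, chr3:142620413-142620712, plus strand: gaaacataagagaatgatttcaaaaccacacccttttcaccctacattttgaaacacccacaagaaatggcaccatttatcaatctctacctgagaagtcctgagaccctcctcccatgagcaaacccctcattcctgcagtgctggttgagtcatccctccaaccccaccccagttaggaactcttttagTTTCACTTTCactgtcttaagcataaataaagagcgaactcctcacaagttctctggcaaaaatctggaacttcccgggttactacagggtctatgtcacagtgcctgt
Gbp2b, chr3:142594597-142594896, plus strand: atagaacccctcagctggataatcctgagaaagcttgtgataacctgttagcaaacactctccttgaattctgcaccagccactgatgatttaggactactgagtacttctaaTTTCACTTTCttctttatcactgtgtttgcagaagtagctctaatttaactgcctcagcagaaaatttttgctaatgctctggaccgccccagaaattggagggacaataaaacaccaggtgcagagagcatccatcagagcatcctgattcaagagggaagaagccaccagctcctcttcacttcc
Cxcl10, chr5:92348840-92349139, minus strand: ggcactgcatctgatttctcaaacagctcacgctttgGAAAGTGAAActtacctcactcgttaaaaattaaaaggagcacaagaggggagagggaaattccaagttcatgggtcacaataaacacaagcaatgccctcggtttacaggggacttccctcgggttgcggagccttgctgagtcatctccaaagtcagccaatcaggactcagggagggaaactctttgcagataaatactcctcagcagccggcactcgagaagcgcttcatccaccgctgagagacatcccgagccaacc
Ifit1 holds 2 copies, beginning 104 and 85 bases before the start, Gbp2 1 copy at 59 bases, Gbp2b 1 at 137 and Cxcl10 1 at 213. On either strand the element was found for 33 of the 139 higher genes with a window (23.7%), against 472 of the 12201 tested genes with a window (3.87%) and 3.44% of all windows. It was found for 11 of 15 higher genes of the interferon-gamma list that had a window, for 6 of 11 of the type I list, and for 0 of the 9 lower genes with a window. The third motif searched, the antioxidant element TGACNNNGC, was present for 17.3% of the higher and 16.8% of the tested genes. These shares are descriptive and were not tested.

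Antigen presentation rose together with the interferon group. Of 18 tested genes of MHC class I presentation 15 rose, with a median log2 fold change of 0.84. The immunoproteasome subunit genes Psmb8, Psmb9 and Psmb10, whose products cut proteins into the peptides that class I molecules display, were all among them. Psmb9 had 3.86, 4.86, 4.88, 4.67 and 4.99 CPM in vehicle and 9.65, 16.7, 10.4, 10.1 and 18.2 CPM at 3 µg/kg (log2 1.48 ± 0.21, adjusted p = 2.01e-05). Psmb8 changed by 1.43 ± 0.25 and Psmb10 by 1.01 ± 0.17 (adjusted p = 0.000395 and 0.000342). Tap1, which encodes a subunit of the peptide transporter, changed by 1.19 ± 0.21 (adjusted p = 0.000669; 0.0642 with only the 10 libraries in the fit). Nlrc5, the transactivator of class I genes, rose from 4.21, 5.17, 4.84, 4.27 and 4.87 CPM to 8.22, 18.6, 10.6, 9.98 and 29.6 CPM (log2 1.72 ± 0.27, adjusted p = 0.000126). H2-Q4, a class I heavy chain of the Q region, changed by 1.17 ± 0.17 (adjusted p = 3.99e-05), though 19.1% of its exonic bases overlap other genes and the H2 family holds close copies. With only the 10 libraries in the fit 9 of the 18 were called.

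MHC class II genes, whose products present peptides from outside the cell to helper T cells, rose in 9 of 10 tested members, with a median log2 fold change of 1.36. H2-Ab1, a class II beta chain, had 58.1, 60.8, 57.9, 51.9 and 61.3 CPM in vehicle and 122, 251, 118, 128 and 343 CPM at 3 µg/kg. All treated libraries were above the vehicle range, and replicates 5 and 2 were higher than the rest (log2 1.73 ± 0.27, adjusted p = 0.000207). The alpha chain gene H2-Aa changed by 1.24 ± 0.17 and the beta chain gene H2-Eb1 by 1.09 ± 0.17 (adjusted p = 2.38e-05 and 0.000213). Ctss, the protease that trims the invariant chain, changed by 1.23 ± 0.18 with no wide spread among treated libraries (16.3, 19.2, 17.5, 18.0 and 22.0 CPM against 8.93, 9.47, 6.31, 6.38 and 8.50 CPM in vehicle; adjusted p = 1.85e-05). The peptide-exchange genes changed most: H2-DMa by 2.00 ± 0.31 and H2-DMb2 by 4.09 ± 0.63 (adjusted p = 0.000129 and 0.000134). H2-DMb2 gave 3.43 without replicate 5 at 3 µg/kg, and H2-DMa gave 0.96 with counts from 1 strand only. With only the 10 libraries in the fit 4 of the 10 were called, and H2-Ab1 (adjusted p = 0.0758) and H2-DMb2 (0.0882) were not.

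The treated libraries spread widely in these groups. The interferon-gamma list summed to 337, 723, 416, 316 and 928 CPM at 3 µg/kg and to 162 to 199 CPM in vehicle. The MHC class II list summed to 593, 1138, 607, 608 and 1484 CPM at 3 µg/kg and to 283 to 328 CPM in vehicle. All 5 treated libraries were thus above the vehicle range, and replicates 5 and 2 were the highest by a margin. Those 2 libraries were the 2 highest treated ones for 19 of the 20 called interferon-gamma genes, 8 of the 9 called class II genes and 14 of the 15 called class I genes. The same order held for 12 of 17 called type I interferon genes, 6 of 15 macrophage genes and 0 of 4 endothelial genes. Over all 178 higher genes it held for 86. For the 5 called AhR battery genes this was so in 0 cases, and replicate 4 was the highest in 3 of them. Replicate 5 was the highest library for 96 of the 178 higher genes.

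**Figure D3:**
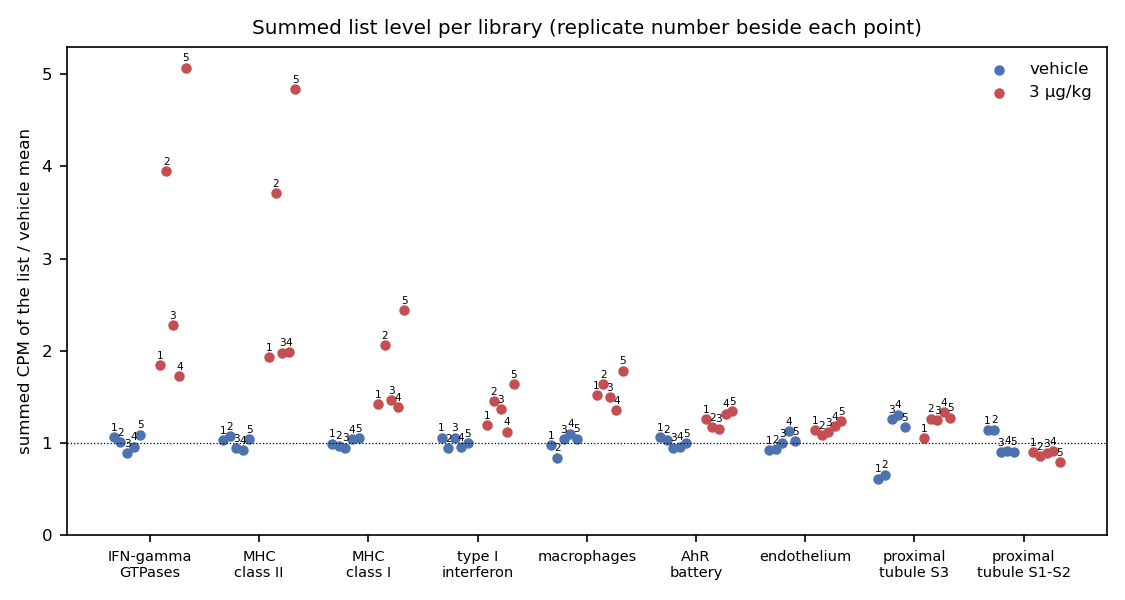
Summed CPM of 9 gene lists in each library, divided by the mean of the 5 vehicle libraries (dotted line at 1), for vehicle (blue) and 3 µg/kg (red), with replicate numbers. Treated replicates 5 and 2 reach 5.07 and 3.95 times the vehicle mean in the interferon-gamma list, while vehicle replicates 1 and 2 lie at 0.61 and 0.66 in the S3 list.

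Markers of macrophages rose as well, and their part in the interferon and MHC results was not tested. Of 28 macrophage markers 15 rose, 0 fell, and the median log2 fold change was 0.81. Their summed level was 200.5 to 263 CPM in vehicle and 325 to 426 CPM at 3 µg/kg, so the groups did not overlap, and no marker of the list was at 0 in all 10 libraries. Adgre1, which encodes the macrophage marker F4/80, had 3.98, 3.50, 2.55, 2.63 and 3.23 CPM in vehicle and 7.38, 6.72, 4.95, 6.90 and 11.4 CPM at 3 µg/kg (log2 1.24 ± 0.21, adjusted p = 0.000242). Lcp1, a leukocyte actin-bundling protein gene, changed by 0.64 ± 0.08 and C1qa, a subunit of complement C1q made by macrophages, by 0.90 ± 0.16 (adjusted p = 2.48e-06 and 0.000455). Ly86, a partner of a Toll-like receptor relative, changed by 1.62 ± 0.31 (adjusted p = 0.00103). Mpeg1, a pore-forming macrophage protein gene, changed by 0.79 ± 0.17 and the NADPH oxidase gene Cybb by 0.94 ± 0.21 (adjusted p = 0.00542 and 0.00978). Both lost the call without replicate 5 at 3 µg/kg (adjusted p = 0.0707 and 0.0958), and Cybb also without replicate 2 (0.0645). Cybb was not called either with only the 10 libraries in the fit (0.0915) or with counts from 1 strand. The count of 15 was 6 without replicate 5 at 3 µg/kg and 9 without vehicle replicate 3.

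Other leukocyte lists gave fewer calls, at summed levels far below those of the macrophage list. The median log2 fold change was 0.59 for dendritic cell markers (9 of 9 positive) and 0.54 for T and NK cell markers (15 of 18). It was 0.13 for B cell markers (5 of 8 positive) and 0.91 for neutrophil markers (3 of 4). Over all genes tested 1.03% were called higher. Among dendritic cell markers 2 of 9 rose: Itgax (CD11c; log2 1.22 ± 0.27, adjusted p = 0.00709) and Clec9a (log2 1.08 ± 0.28, adjusted p = 0.0414). Itgax was not called without replicate 5 at 3 µg/kg (adjusted p = 0.082). The call of Clec9a was lost when any 1 of 7 libraries was left out: treated replicates 1, 3 and 5 and vehicle replicates 2 to 5 (highest adjusted p = 0.29). Among T and NK cell markers 1 of 18 rose, the interleukin-2 receptor chain gene Il2rb (log2 1.69 ± 0.41, adjusted p = 0.0211). That call was lost without treated replicate 2 or without any of vehicle replicates 3 to 5 (highest adjusted p = 0.0933). The lists' summed levels in vehicle and at 3 µg/kg were 17.2 to 21.6 and 23.2 to 32.3 CPM for dendritic cells and 11.1 to 14.0 and 12.7 to 21.2 CPM for T and NK cells. B cell (8 tested) and neutrophil markers (4 tested) gave 0 calls. The neutrophil genes Ly6g, Ngp, Retnlg and Cxcr2 did not pass the filter on low counts, and Ly6g was at 0 in all 10 libraries.

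Complement gave 5 higher genes of 19 tested, with a median log2 fold change of 0.30. C4b, a component of the classical pathway, had 17.0, 12.6, 7.56, 7.10 and 7.99 CPM in vehicle and 17.0, 28.7, 24.7, 15.6 and 39.0 CPM at 3 µg/kg, so treated replicate 1 was level with the highest vehicle library, replicate 1, and treated replicate 4 below it (log2 1.26 ± 0.28, adjusted p = 0.0108; 0.082 without treated replicate 5). C1qb changed by 0.64 ± 0.15 (adjusted p = 0.0126; 0.075 without treated replicate 5 and 0.0508 without vehicle replicate 3). C1qa is given above. Both C1qa and C1qb are also on the macrophage list, so their calls are counted in each list. The calls of the receptor gene C3ar1 (log2 1.24 ± 0.31, adjusted p = 0.026) and the integrin chain gene Itgb2 (log2 0.84 ± 0.20, adjusted p = 0.0197) were lost without any 1 of 6 and of 5 libraries. For C3ar1 these were treated replicates 1, 3 and 5 and vehicle replicates 3 to 5. For Itgb2 they were treated replicates 2 and 4 and vehicle replicates 2 to 4. The count of 5 was 2 without treated replicate 5 or vehicle replicate 3 and 3 without vehicle replicate 4. The central component gene C3 was not called.

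Endothelial markers changed little. Of 26 tested 4 rose and 1 fell, and the median log2 fold change was 0.25. A positive log2 fold change was found in 21 of the 26, and 13 of the 26 had an unadjusted p under 0.05. Emcn, which encodes the sialomucin endomucin of capillary and venous endothelium, had 62.2, 53.5, 63.6, 77.3 and 63.5 CPM in vehicle and 89.9, 87.3, 87.8, 84.3 and 93.5 CPM at 3 µg/kg. Every treated library was above every vehicle library and the treated values were close together (log2 0.47 ± 0.08, adjusted p = 0.000115). Sox17, a transcription factor gene of arterial endothelium, had 8.93, 10.6, 15.9, 13.5 and 16.7 CPM and 26.3, 20.4, 21.8, 23.1 and 24.6 CPM (log2 0.82 ± 0.17, adjusted p = 0.0033). Its lowest vehicle values were replicates 1 and 2, and without them the adjusted p was 0.196. Cdh5 (log2 0.37 ± 0.10, adjusted p = 0.0382) and Robo4 (log2 0.46 ± 0.12, adjusted p = 0.0264) were lost without vehicle replicates 1 and 2 (adjusted p = 0.493 and 0.753). Left out singly, 7 libraries ended the call of Cdh5 (treated replicates 2 to 5, vehicle replicates 1 to 3) and 5 that of Robo4 (treated replicates 3 to 5, vehicle replicates 1 and 2). The count of 4 was 1 without vehicle replicates 1 and 2 together, 2 without treated replicate 4, treated replicate 5, vehicle replicate 1 or vehicle replicate 2, and 8 without vehicle replicate 4.

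Nephron markers gave 1 call at this dose: Slc8a1, among 7 tested markers of the distal convoluted tubule, was lower and is given with the lower genes. All 7 of these markers had a negative log2 fold change (median -0.28). While 1553 of all 17345 genes tested had an unadjusted p under 0.05, 6 of the 7 markers did. Their summed level was 4655, 5509, 4951, 4386 and 4254 CPM in vehicle and 4121, 3966, 3736, 3847 and 3923 CPM at 3 µg/kg, so every treated library lay below every vehicle library, with or without vehicle replicates 1 and 2. In the lists for podocytes (10 tested), proximal tubule S1-S2 (12), S3 (8), thick ascending limb (7), principal cells (7) and intercalated cells (8) 0 genes were called in either direction. The S1-S2 list had a median log2 fold change of -0.22 and the S3 list one of 0.34. Both are lists in which vehicle replicates 1 and 2 stood apart. Of the S1-S2 genes 0 of 12 had a positive log2 fold change, and of the S3 genes 8 of 8. An unadjusted p under 0.05 was seen in 4 and 0 of them. Over all genes tested 1.03% were called higher, and of 14 tested markers of tubular injury 1 was. It was Cd44, the hyaluronan receptor gene that both injured tubules and leukocytes express, with 3.51, 1.06, 0.432, 1.51 and 2.66 CPM in vehicle and 5.64, 4.38, 5.41, 5.02 and 5.23 CPM at 3 µg/kg (log2 1.51 ± 0.27, adjusted p = 0.000366; 0.0967 with only the 10 libraries in the fit). The kidney injury gene Havcr1 and the lipocalin gene Lcn2 were not called (log2 -0.05 and 0.46). Lists for matrix and fibroblasts (17 tested), PPARA targets (16), cholesterol synthesis (14), the circadian clock (17), immediate early genes (10), the cell cycle (10) and androgen-responsive genes (10) also gave 0 calls, as did those for fat, adrenal cortex, red blood cells, liver and skeletal muscle. All 17 matrix and fibroblast genes had a positive log2 fold change, 1 of them at an unadjusted p under 0.05. Fat markers summed to 113 to 262 CPM in vehicle and 70.7 to 216 CPM at 3 µg/kg.

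The 15 largest rises held genes from outside these lists too. Apol7c, an apolipoprotein L gene, rose from 0.0576, 0.608, 0.173, 0 and 0.113 CPM to 4.38, 4.79, 5.74, 1.94 and 5.84 CPM (log2 4.46 ± 0.54, adjusted p = 1.52e-06). Vehicle replicate 2 held most of its vehicle signal, and without that library the log2 fold change was 5.50. Ubd, which encodes the ubiquitin-like modifier FAT10, changed by 2.82 ± 0.57 (adjusted p = 0.0027; 0.0667 without vehicle replicates 1 and 2, and 0.358 with counts from 1 strand). Ms4a4a gave 1 count in vehicle and 31 at 3 µg/kg, a ratio of 33.3 (exact 95% counting interval 5.55 to 1358; adjusted p = 0.0276). The NK receptor gene Klrb1b gave 9 and 69 counts, a ratio of 8.24 (4.10 to 18.8; adjusted p = 0.0227), and shares 26.9% of its exonic bases. Nefh, a neurofilament subunit gene, had 0.288, 0, 0.0864, 0 and 0 CPM in vehicle and 1.16, 0.643, 0.782, 1.14 and 0.327 CPM at 3 µg/kg (adjusted p = 0.023). Each of these last 3 calls was lost when single libraries were left out: 5 libraries for Ms4a4a (treated replicate 5, vehicle replicates 2 to 5), 5 for Klrb1b (treated replicates 3 and 4, vehicle replicates 1 to 3) and 6 for Nefh (treated replicates 1 and 4, vehicle replicates 2 to 5), with highest adjusted p-values of 0.131, 0.0905 and 0.097. Without vehicle replicates 1 and 2 together the adjusted p was 0.105 for Ms4a4a and 0.301 for Klrb1b. The single vehicle count of Ms4a4a was in replicate 1, and without that library Nefh had vehicle counts in replicate 3 alone, so no fold is given for either without replicate 1.

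The 11 lower genes were small changes in genes of unlike function. Fcamr, an Fc receptor for IgM and IgA, had 41.1, 40.4, 30.8, 33.2 and 35.8 CPM in vehicle and 24.1, 21.0, 23.1, 26.2 and 19.9 CPM at 3 µg/kg (log2 -0.67 ± 0.13, adjusted p = 0.000888). Btnl9, a butyrophilin-like gene on the endothelial list, had 13.5, 17.0, 15.6, 12.7 and 11.5 CPM and 7.17, 9.17, 8.87, 6.90 and 8.60 CPM (log2 -0.79 ± 0.17, adjusted p = 0.00416). In both, all treated libraries lay below all vehicle libraries. Spink8 changed by -0.66 ± 0.13, Tmem52b by -0.35 ± 0.07 and Apom, the carrier of sphingosine-1-phosphate in plasma, by -0.53 ± 0.12 (adjusted p = 0.00206, 0.00389 and 0.00924). Mogs, a glucosidase of glycoprotein processing, changed by -0.35 ± 0.08 and Phgdh, the first enzyme of serine synthesis, by -0.52 ± 0.13 (adjusted p = 0.0132 and 0.0188). Slc25a44, a mitochondrial carrier gene, changed by -0.27 ± 0.07, Slc8a1, the sodium-calcium exchanger gene of the distal convoluted tubule list, by -0.43 ± 0.11, Cyp2f2 by -0.97 ± 0.26 and Msantd4 by -0.26 ± 0.07 (adjusted p = 0.0364, 0.041, 0.042 and 0.043). In 9 of the 11 all treated libraries lay below all vehicle libraries, an order seen in 118 of all tested genes (0.68%).

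None of the 11 calls held without vehicle replicates 1 and 2, a fit that also has fewer vehicle libraries, 3 in place of 5. In that fit 11 of 11 still had a negative log2 fold change (-0.71 to -0.22), with adjusted p-values from 0.0579 to 0.64. No gene of the 18002 then tested was called lower by edgeR, and 280 were lower with an unadjusted p under 0.05. Leaving out single libraries also ended the calls of Apom (vehicle replicate 1 or 2, highest adjusted p = 0.0533), Mogs (vehicle replicate 2, 0.0748) and Phgdh (treated replicates 2 and 5, vehicle replicates 1 and 2; 0.124). Cyp2f2 lost its call without any 1 of 6 libraries (treated replicates 1, 2, 4 and 5, vehicle replicates 1 and 2; 0.26) and Slc25a44 without any 1 of 7 (treated replicates 1, 2, 3 and 5, vehicle replicates 1, 2 and 5; 0.143). Slc8a1 did so without any 1 of 8 (all but treated replicate 2 and vehicle replicate 4; 0.157) and Msantd4 without any 1 of 9 (all but treated replicate 1; 0.195).

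**Figure D4:**
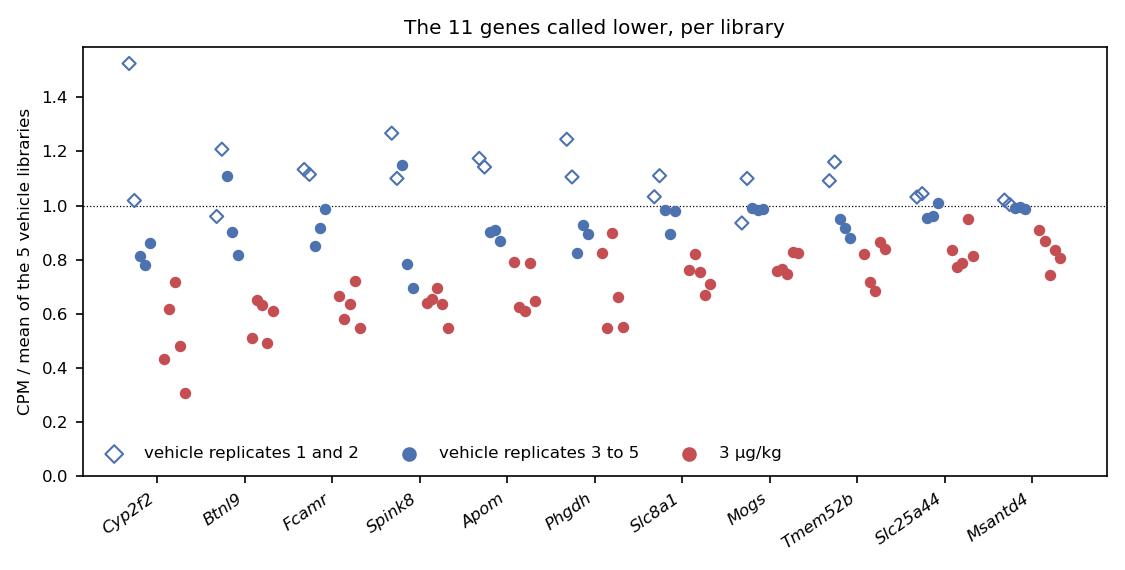
CPM of the 11 genes called lower at 3 µg/kg (red), divided by the mean of the 5 vehicle libraries (blue; dotted line at 1), 1 point a library. Vehicle replicates 1 and 2 (open diamonds) are often the highest vehicle libraries, as in Apom and Tmem52b.

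The neighbouring doses show where 3 µg/kg lies in the series. These comparisons use the same 5 libraries at 3 µg/kg as the comparison with vehicle, so their values are set side by side and not counted as independent. Against 1 µg/kg, 2 of the 17345 genes were called (0.0115%), both higher at 3 µg/kg, and 475 had an unadjusted p under 0.05. They were Cyp1a1, with 99.4 ± 12.1 CPM at 1 µg/kg and 294 ± 58.7 CPM at 3 µg/kg (SD, n = 5; log2 1.57 ± 0.20, adjusted p = 0.000138), and Cyp1b1, with 32.6 ± 4.79 and 64.3 ± 11.4 CPM (log2 0.98 ± 0.14, adjusted p = 0.000387). Both calls held without any 1 library. Replicate 4 at 1 µg/kg held 831 CPM of adrenal cortex markers, against 3.20 to 6.72 CPM in the others of that dose. The list differences below include that library, and its part in them was not tested.

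The interferon and MHC genes gave no call between 1 and 3 µg/kg. The median log2 difference was 0.03 for the interferon-gamma list, 0.09 for the type I list, 0.01 for class I and 0.17 for class II, against -0.0005 over all genes. Gbp2 averaged 9.62 ± 1.61 CPM in vehicle, 25.6 ± 4.73 CPM at 1 µg/kg, 27.5 ± 7.98 CPM at 3 µg/kg, 33.4 ± 5.08 CPM at 10 µg/kg and 23.2 ± 4.50 CPM at 30 µg/kg. Stat2 averaged 22.4 ± 1.90, 32.6 ± 4.69, 36.9 ± 6.35, 36.9 ± 3.42 and 28.4 ± 1.63 CPM at the same doses. Neither gene was called between 3 µg/kg and 1 or 10 µg/kg. At 10 versus 3 µg/kg 0 genes of the 4 lists were called, but most had positive differences. The median log2 difference was 0.37 for the type I list (33 of 35 positive, 16 at an unadjusted p under 0.05), 0.31 for class II (9 of 10 positive, 3), 0.25 for class I (15 of 18 positive, 4) and 0.18 for the interferon-gamma list (16 of 24 positive, 1), against 0.001 over all genes. Cyp1a1 averaged 1569 ± 147 CPM at 10 µg/kg and 2537 ± 436 CPM at 30 µg/kg.

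Against 3 µg/kg, the 10 µg/kg libraries had 19 called genes (0.11%), 16 higher (0.0922%) and 3 lower (0.0173%), and 1373 had an unadjusted p under 0.05. Cyp1a1 was higher by 2.42 ± 0.21 on the log2 scale (adjusted p = 6.54e-09) and Cyp1b1 by 1.06 ± 0.14 (adjusted p = 4.29e-05). Il33, the gene of an alarmin cytokine, was higher by 1.09 ± 0.20, Cpm, a membrane carboxypeptidase gene, by 0.66 ± 0.11 and Nfe2l2, which encodes NRF2, by 0.36 ± 0.07 (adjusted p = 0.00612, 0.0028 and 0.0195). None of Il33, Cpm and Nfe2l2 was called at 3 µg/kg versus vehicle (adjusted p = 0.359, 0.928 and 0.07). The serine protease gene Tmprss9 changed by -1.68 ± 0.31, the thymidine kinase gene Tk1 by -0.60 ± 0.13 and Susd2 by -0.33 ± 0.07 (adjusted p = 0.00783, 0.0403 and 0.0403). Atp12a was 1.76 ± 0.38 higher (adjusted p = 0.0444), and the difference was 1.66 to 1.94 in all alternatives run. That call was lost in 13 of 16 alternatives (highest adjusted p = 0.179). These were the fits without any 1 of the 10 libraries of these doses, DESeq2, no filter and the term for title numbers. With only those 10 libraries fitted the adjusted p was 6.36e-05. The count of 19 was unstable: it was 3 without replicate 2 at 10 µg/kg, 5 without replicate 5 at 10 µg/kg or replicate 1 at 3 µg/kg, 6 without replicate 3 and 8 without replicate 2 at 3 µg/kg, and 11 without replicate 4 at 10 µg/kg.

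**Figure D5:**
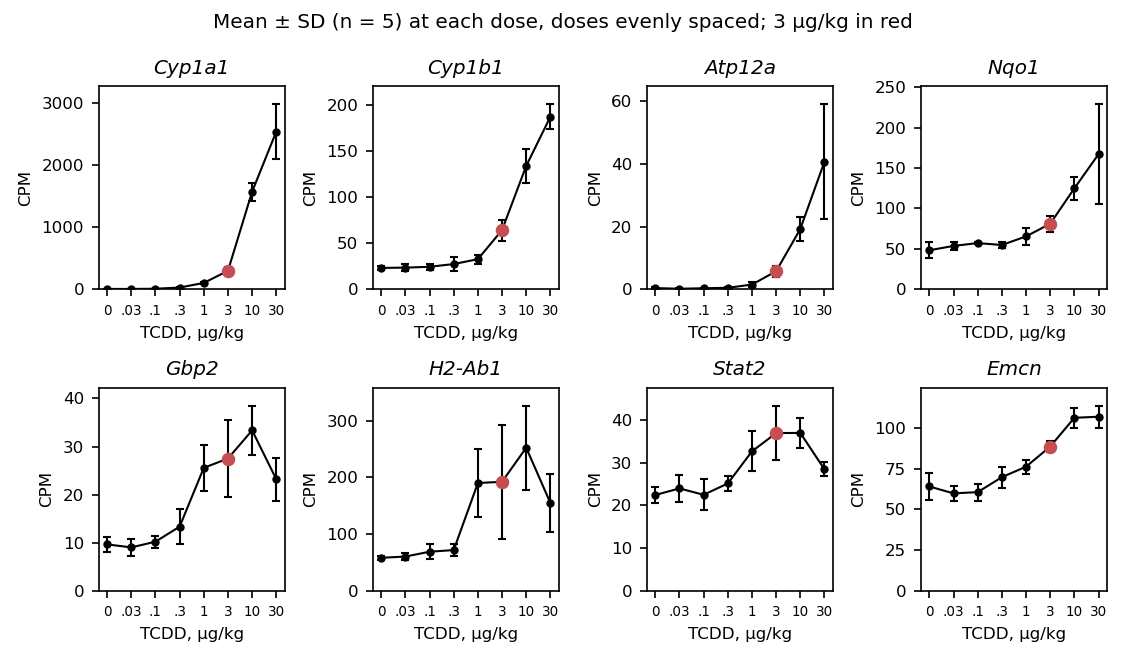
Mean CPM ± SD (vertical axes from 0, n = 5) of 8 genes at each dose in µg/kg, with doses evenly spaced and 3 µg/kg in red. Cyp1a1, Cyp1b1, Atp12a and Nqo1 go on rising in mean to 30 µg/kg, while Gbp2 and H2-Ab1 have similar means at 1 and 3 µg/kg and lower means at 30 than at 10 µg/kg.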

How the data were processed

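Right kidneys of 40 male mice were sequenced as bulk RNA (paired 150 bp reads, per the labels' protocols). The authors deposited per-library tables of raw gene counts that have STAR's columns. STAR 2.7.3a, Trimmomatic 0.39 and FastQC 0.11.7 are named, per the submitters' processing notes, which name both the GRCm39 and mm10 builds. The build of these counts and the annotation release are not given in the sources used here, so no coordinates come from the files. The unstranded count column was used as deposited, since the stranded columns held nearly equal shares (50.4 to 51.0% in the larger), so overlapping genes on either strand cannot be separated. Summary lines without a gene stayed out: in the 40 libraries 1.41 to 2.66% of reads were unmapped, 6.98 to 9.70% mapped to several places, 5.28 to 7.27% lay in no feature and 5.41 to 5.98% were ambiguous. Of 55359 identifiers 52083 were named with GENCODE M21.

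The fit used edgeR 4.0.16 in R 4.3.3 on all 40 libraries: filterByExpr by group (17345 genes), TMM scaling (0.966 to 1.09), robust quasi-likelihood F-test, Benjamini-Hochberg adjustment over all genes and a threshold of 0.05. The biological coefficient of variation was 17.1%. The same steps were tested on simulated data. Alternatives were DESeq2 1.42.0, RLE scaling, no filter, the larger stranded column, a fit of the 10 libraries, a term for the 2 runs of title numbers (up to 27, and above), each library left out and, added after seeing the data, vehicle replicates 1 and 2 left out together. The 20 replicate pairs of the 2 groups differed by more than sampling noise (chi-square per degree of freedom 7.34 to 37.8). The labels call the samples separate mice. The labels name no molecular identifiers, so counting intervals cover counting error only.

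The comparison and the 37 gene lists were chosen with earlier results of these data known, and no list was tested as a set. The text names 9 fixed AhR genes, the 15 largest rises whose groups did not overlap, all lower genes, up to 6 called genes per list by lowest p, and up to 5 per direction between doses, leaving out unnamed gene models and 1 gene that is not reported here. Promoter windows come from RefSeq (GRCm38.p6).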

Additional observations from a re-analysis of the deposited data

Results flagged for a closer look

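In 7 of 162 groups of 5 libraries examined for the named genes, 1 library lay far from the other 4 (gap over range above 0.71), and chance gives about 8.1. In vehicle, replicate 2 had 0.608 CPM of Apol7c against at most 0.173 in the others, and replicate 5 had 1.64 CPM of Gbp10 against at most 0.734. Replicate 1 of vehicle had 0.0576 CPM of Ms4a4a with 0 in the others, 18.3 CPM of Parp14 against at most 15.5, and 3.86 CPM of Psmb9 against at least 4.67. At 3 µg/kg, replicate 5 had 0.654 CPM of Ms4a4a against at most 0.316 and 20.6 CPM of Oasl2 against at most 15.0.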

How the results depend on the processing

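The 189 genes called at 3 µg/kg versus vehicle became 284 with DESeq2 (255 higher, 29 lower), 113 with only the 10 libraries fitted (103 and 10), 108 without vehicle replicates 1 and 2 and 119 to 199 with 1 library left out. RLE scaling gave 193, no filter 164, the title term 221 and the larger stranded column 132. The 19 genes at 10 versus 3 µg/kg became 149 with the 10 libraries of those doses, 74 with DESeq2, 12 with the larger stranded column and 3 to 23 with 1 library left out. The 2 genes at 3 versus 1 µg/kg stayed 2 throughout. Higher genes with only the 10 libraries fitted numbered 12 (interferon-gamma), 9 (MHC class I), 4 (MHC class II), 2 (endothelium) and 2 (complement). With the larger stranded column they were 10 (type I interferon), 7 (macrophages) and 3 (complement), and without vehicle replicates 1 and 2 they were 9 (type I interferon) and 1 (endothelium). With 1 library left out the ranges were 5 to 5 for the AhR battery, 16 to 20 for interferon-gamma, 10 to 19 for type I interferon, 11 to 16 for MHC class I, 9 to 9 for class II, 6 to 17 for macrophages, 2 to 5 for complement and 2 to 8 for endothelium. Of 76 named genes called versus vehicle, 39 kept the call in all 17 alternatives, 37 lost it in at least 1, and 0 changed direction. Uncalled genes near 0 changed sign: Cyp1a2 (-0.056 with DESeq2, -0.41 with the title term, -1.52 to 0.71 with 1 library left out), Tiparp (0.069 without vehicle replicates 1 and 2, -0.10 to 0.028 with 1 library left out), Ahr (-0.085 to 0.050) and Arnt (-0.042 to 0.10). The causes of these shifts were not tested. No paired analysis was possible because the labels give no replicate numbers. On simulated counts, 70% of genes changed 1.5-fold and 92% of those changed 2-fold were recovered, so smaller changes may be missed at this depth. The changed genes there were drawn only from well counted genes. Their spread was set by level alone, and no library stood apart. Recovery of genes with low counts was therefore not measured.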

Other observations

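Of the 178 higher genes 85 were on none of the lists. The protein-coding genes below were picked after their values were seen, from those 85, by low p. Neurl3, which encodes a ubiquitin ligase of the neuralized family, had 8.93, 7.60, 8.77, 5.85 and 7.99 CPM in vehicle and 25.8, 22.3, 21.7, 25.1 and 26.0 CPM at 3 µg/kg. Its treated values were among the most even of those listed here, with replicate 5 hardly above replicate 1 (log2 1.62 ± 0.16, adjusted p = 1.07e-09 by edgeR). Myeloid genes included Pirb, an inhibitory immunoglobulin-like receptor (log2 1.91 ± 0.30, adjusted p = 7.43e-05), and Plcb2, a phospholipase C of blood cells (log2 1.76 ± 0.30, adjusted p = 0.000207). Unc93b1, which carries nucleic acid-sensing Toll-like receptors to endosomes, had 20.2, 18.1, 17.7, 19.9 and 16.6 CPM in vehicle and 29.9, 31.9, 23.6, 26.2 and 33.9 CPM at 3 µg/kg (log2 0.66 ± 0.11, adjusted p = 0.000236). Gsdmd, the pore-forming protein of pyroptosis, had 4.55, 4.20, 3.15, 2.10 and 2.32 CPM and 7.38, 6.66, 7.56, 6.29 and 7.15 CPM, with no overlap (log2 1.09 ± 0.19, adjusted p = 0.000342). Lgals3bp, a secreted galectin-binding glycoprotein, changed by 0.82 ± 0.13 (adjusted p = 0.000213; 0.137 with only the 10 libraries in the fit).

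Cd200 and Tm4sf1 rose as well. Cd200, whose product restrains myeloid cells, had 17.9, 16.1, 15.3, 13.1 and 18.9 CPM in vehicle and 23.9, 21.5, 28.3, 27.0 and 28.3 CPM at 3 µg/kg (log2 0.66 ± 0.12, adjusted p = 0.000366). Tm4sf1, a membrane protein gene active in endothelium, had 33.6, 32.5, 36.4, 40.7 and 40.1 CPM and 53.8, 44.5, 57.8, 54.2 and 54.9 CPM (log2 0.53 ± 0.09, adjusted p = 0.000392). In both genes all treated libraries lay above all vehicle libraries. Except for Lgals3bp, the genes named in these 2 paragraphs were called in all 17 alternatives.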
